A study of Macaca mulatta with 8 samples.

Results

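Endogenous effector Tregs are the cells that the deposited cell table of a rhesus macaque series names endo_Effector_Tregs. Regulatory T cells (Tregs) of rhesus macaques (Macaca mulatta) were followed in blood after adoptive transfer, and 912 of the 25397 cells in the series carried this name. Of these, 905 lay in the libraries sorted as CD25high and CD127low (461 cells of day 3 and 444 of day 20), and the results are about those. The other 7 lay in the libraries of CFSE-positive cells, 6 on day 3 and 1 on day 20, and were not pooled with them.

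Tregs restrain other immune cells. They are CD4 T cells defined by the transcription factor FOXP3, carry the high-affinity interleukin-2 receptor chain CD25 (gene IL2RA), and use the inhibitory receptor CTLA-4. Those in blood are commonly divided into naive-like cells, which keep the genes of resting, recirculating T cells, and effector cells, which have met antigen, carry more FOXP3 and CTLA-4, and express genes of adhesion, migration and suppression.

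Blood mononuclear cells were cryopreserved, thawed, enriched magnetically for CD4 and sorted by flow cytometry, and the labels name 4 sorted populations on day 3 and on day 20. One sort took CFSE-positive cells; CFSE is a dye that labelled cells keep and dilute as they divide, and it was taken from the series title to mark the transferred cells. The others took cells that were CD25high and CD127low, CD127-positive with CD25, or CD127-positive without CD25 (CD127-positive CD25-negative). With a single library for every population and day, there are no replicates and no p-value is given, and intervals are 95% intervals that cover counting error only. The labels name no animal, age or treatment behind any library, and they do not say from which animals or in which way the transferred cells were made.

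Effector cells were compared with 4 groups. Naive-like cells are those named endo_Naive_Tregs in the same CD25high CD127low libraries (798 on day 3 and 412 on day 20). Cells of the class the authors call Tconv also passed this sort (2037 and 1356). Transferred effector cells are those named transferred_Effector_Tregs in the CFSE-positive library of day 3 (1124 cells). The CD127-positive CD25-negative sort served as the conventional CD4 background (3037 and 3677 cells). Values are UMIs (counted RNA molecules) summed over the cells of a group and scaled to counts per 1000000 UMIs of that group (CPM). The cell table holds these names beside cluster and map columns, and how the names were given is not stated there. Since they may rest on the same expression data, differences between named groups are a description and support nothing further.

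The 461 effector cells of day 3 gave 1662752 UMIs, and the 444 of day 20 gave 1334596. The median cell had 3363 UMIs and 1168 genes on day 3, and 2457.5 UMIs and 912.5 genes on day 20. Library totals across the series lay between 2992787 and 12149559 UMIs. The authors' cluster 3 held 454 effector cells of day 3 and all 444 of day 20, and cluster 4 held the other 7. Cell barcodes found in more than 1 library numbered 382 over the series, and 13 effector cells of day 3 and 16 of day 20 carried such a barcode. No doublet caller was run. Doublet-like cells, defined by 3 or more UMIs from the marker lists of B cells, platelets, monocytes or red cells or by a UMI total beyond 2 times their library's median, numbered 75 of 461 on day 3 and 62 of 444 on day 20. The monocyte list holds CST3, a gene that was high in effector cells. That list flagged 20 and 12 effector cells, 0 and 0 naive-like cells and 1 and 0 cells of the Tconv class. The UMI total flagged 28 and 43 effector cells, 17 and 4 naive-like cells and 24 and 10 cells of the Tconv class. All flags together took 53 of 798 and 13 of 412 naive-like cells. In the Tconv class they took 98 of 2037 and 25 of 1356. Whether the flagged cells were doublets was not tested. Leaving out doublet-like cells is therefore not neutral between these groups, and it can lower the effector share.

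Effector cells made up 13.8% (12.6 to 15) of the CD25high CD127low library on day 3 and 19.0% (17.4 to 20.6) on day 20, with exact binomial (Clopper-Pearson) intervals. Without doublet-like cells, these shares were 12.4% and 17.1%. The sort sets this denominator, and day and library cannot be told apart.

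All 4 markers given for the cells were present on both days. FOXP3 stood at 235 CPM (212 to 260) on day 3 and 203 CPM (180 to 229) on day 20 in effector cells, at 110 and 64.7 CPM in naive-like cells, at 17.5 and 16.9 CPM in the Tconv class and at 0.53 and 0.246 CPM in conventional cells. It was 2.13 times (1.83 to 2.49) the naive-like level on day 3 and 3.14 times (2.42 to 4.12) on day 20. The transferred effector cells of day 3 had more, 346 CPM, so that the endogenous level was 0.680 times theirs (0.605 to 0.763).

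CTLA4 stood at 138 and 136 CPM in effector cells, at 50.8 and 38.5 CPM in naive-like cells, at 25.7 and 19.3 CPM in the Tconv class, and at 55.7 CPM in transferred effector cells. Of these groups the endogenous effector cells were the highest on both days. IL2RA was at 766 and 387 CPM in effector cells and at 492 and 281 CPM in naive-like cells, which is 1.56 times (1.44 to 1.68) and 1.38 times (1.20 to 1.59) the naive-like level. In conventional cells IL2RA was at 5.44 and 5.16 CPM, and since CD25 protein was a sort criterion, gate and cell type cannot be told apart there.

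S100A4, a calcium-binding protein of memory and migrating T cells, stood at 5544 and 5272 CPM in effector cells, at 551 and 331 CPM in naive-like cells, at 1741 and 1766 CPM in the Tconv class, at 1792 and 1603 CPM in conventional cells and at 440 CPM in transferred effector cells. It was 10.1 times (9.51 to 10.6) and 15.9 times (14.3 to 17.7) the naive-like level. The Tconv class and conventional cells were also above naive-like cells, so S100A4 was not confined to effector cells. With each cell thinned to 1000 UMIs, an S100A4 UMI was found in 78.3% and 86.04% of effector cells. The shares were 24.6% and 18.4% of naive-like cells, 34.6% and 41.7% of the Tconv class and 33.1% and 31.95% of conventional cells. In transferred effector cells of day 3 the share was 18.3%. S100A4 therefore set the effector cells apart by amount and by share of cells.

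**Figure D1:**
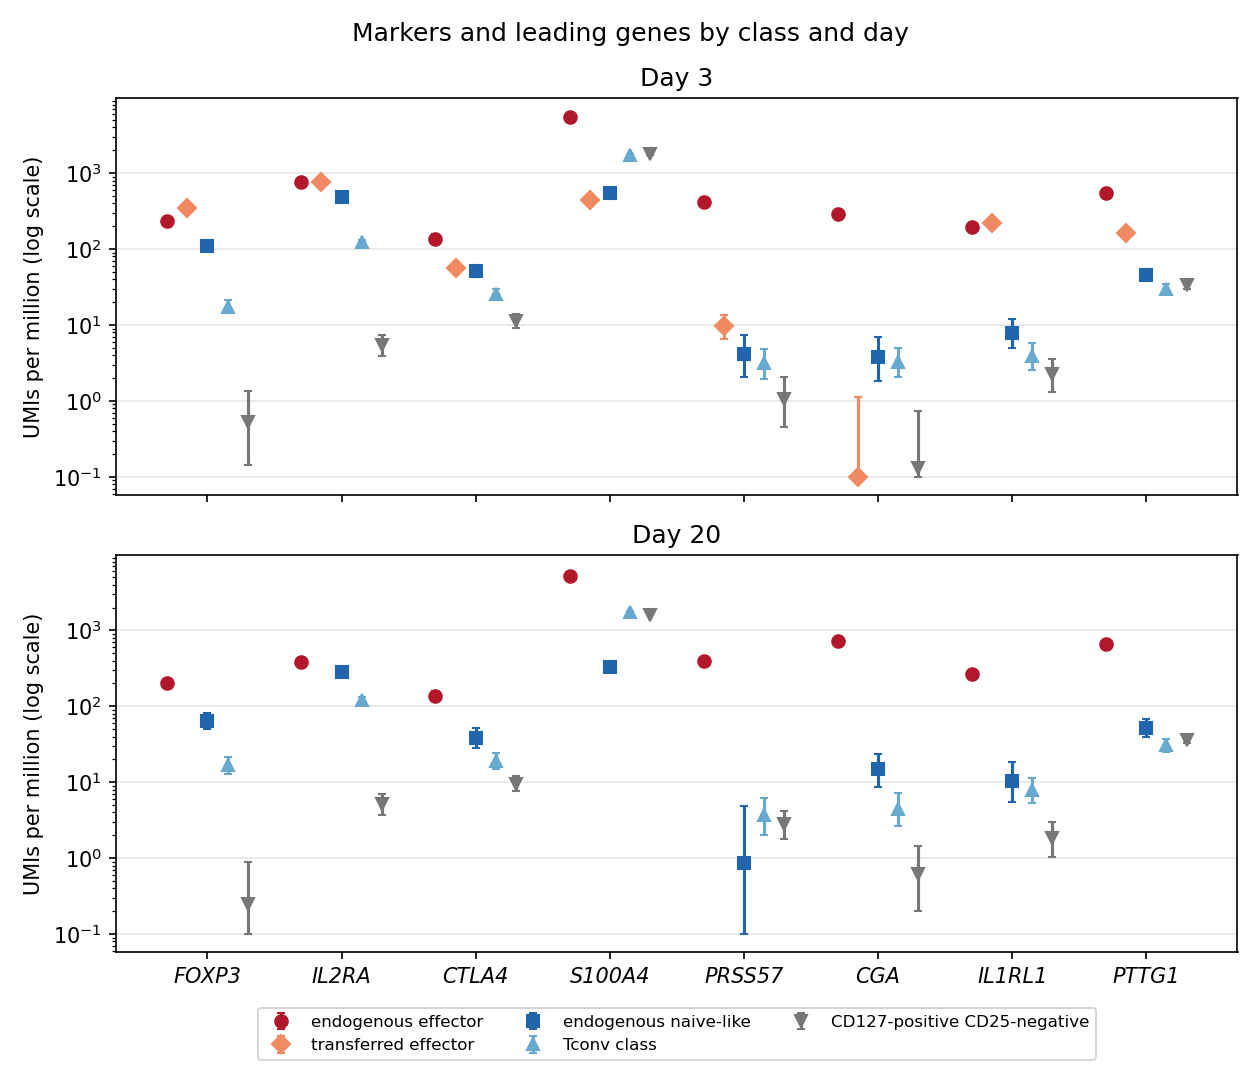
CPM (log scale) of 8 genes in 5 groups on day 3 (top) and 4 groups on day 20 (bottom); bars are 95% Poisson intervals for counting error, and a count of 0 or a bound of 0 is drawn at 0.1. FOXP3 of effector cells (235 and 203) lies above that of naive-like cells (110 and 64.7), PRSS57 and CGA of effector cells lie at least 10 times above those of every other group shown, and IL1RL1 is at 220 in transferred effector cells and 194 in endogenous ones.

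Per cell, each cell was thinned to 1000 UMIs to remove differences in depth. A FOXP3 UMI was then found in 18.9% (15.4 to 22.7) of effector cells on day 3 and 19.1% (15.6 to 23.1) on day 20, compared with 10.4% and 8.98% of naive-like cells, 1.62% and 1.40% of the Tconv class and 27.2% of transferred effector cells. In conventional cells, which should lack the gene, the shares were 0.0329% and 0.0272%. Without thinning, the effector shares were 47.1% and 36.5% at medians of 3363 and 2457.5 UMIs, and the conventional shares 0.132% and 0.0544% at medians of 2445 and 2185 UMIs. Also without thinning, at least 3 of the 4 markers were detected in 50.5% of effector cells on day 3 and 34.2% on day 20. The shares were 13.4% and 6.80% of naive-like cells, 2.50% and 2.21% of the Tconv class and 21.6% of transferred effector cells. Depth differs between these days and groups, and these shares are not corrected for it. FOXP3, IL2RA and CTLA4 all went undetected in 41 of 461 effector cells and in 91 of 444, which at this depth does not show that the genes were off.

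Effector and naive-like cells shared their library, their sort and their day. A gene was called where day 3 and day 20 both gave a ratio of 2-fold or more in 1 direction and either group held 50 CPM or more each time. Log2 ratios were taken after adding 10 CPM to both values, so they are smaller than the plain ratios for weakly expressed genes. Of 1966 genes measured, 201 (10.2%) were at least 2-fold higher in effector cells and 13 (0.661%) at least 2-fold lower. The median gene was itself 0.50 higher on the log2 scale on day 3 and 0.46 on day 20. Ribosomal protein genes took 30.1% and 32.2% of effector UMIs but 44.7% and 44.4% of naive-like UMIs, and 72 of 74 of those measured on day 3 and 72 of 76 on day 20 had a ratio below 0. With TMM factors, which rescale most genes to no change, the counts were 73 higher and 46 lower, the higher share of the calls moved from 93.9% to 61.3%, and the median gene was at 0.13 and 0.14. With median-of-ratios factors they were 66 and 58, a higher share of 53.2%, with the median at 0.09 and 0.10. With all UMIs outside ribosomal and mitochondrial genes as the total they were 97 and 34, a share of 74.0%, with the median at 0.18 and 0.20. The authors' own gene set for ordering cells held 171 of the 201 higher genes (85.1%), and 38.7% of the genes measured.

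The 12 named genes with the largest excess over naive-like cells were led by secreted and receptor genes. PRSS57, a serine protease related to those of neutrophil granules, stood at 419 CPM (388 to 451) on day 3 and 397 CPM (364 to 432) on day 20 in effector cells and at 4.17 and 0.874 CPM in naive-like cells. Its ratio was 100 (55.8 to 202) on day 3 and 454 (81.2 to 17979) on day 20, where naive-like cells held 1 UMI. CGA, the alpha subunit shared by the pituitary and placental glycoprotein hormones, was at 289 CPM (263 to 316) and 734 CPM (689 to 782) in effector cells against 3.79 and 14.9 CPM in naive-like cells, 76.2 times (41.1 to 160) and 49.4 times (30.7 to 85.2) as much. IL1RL1, the receptor for the alarmin interleukin-33, was at 194 and 264 CPM against 7.96 and 10.5 CPM. Its ratio was thus much the same on both days, at 24.4 (15.7 to 39.98) and 25.1 (14.2 to 49.1).

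Among genes of the nucleus, PTTG1 (securin, which holds sister chromatids together until anaphase) was at 547 and 653 CPM in effector cells against 45.5 and 52.4 CPM in naive-like cells, a ratio of 12 (9.93 to 14.7) and 12.5 (9.58 to 16.5). LMNA, which encodes lamins A and C of the nuclear lamina, was at 310 and 228 CPM against 20.1 and 16.6 CPM. PTMS (parathymosin) was at 254 and 222 CPM against 18.6 and 8.74 CPM, and HOPX, a homeodomain cofactor, at 104 and 209 CPM against 9.09 and 12.2 CPM. None of these 4 genes had overlapping intervals between the groups on either day. HOPX was at 102 and 129 CPM in the Tconv class and 150 and 146 CPM in conventional cells. Its excess on day 3 was therefore over naive-like cells and not over these groups, while on day 20 its level in effector cells was above theirs too, by less than 2-fold.

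TNFRSF18, the co-stimulatory receptor GITR of Tregs, was at 259 and 211 CPM in effector cells and at 33.3 and 27.1 CPM in naive-like cells, a ratio of 7.76 (6.15 to 9.87) and 7.80 (5.37 to 11.7). LGALS3 (galectin-3, a sugar-binding protein) was at 621 and 515 CPM against 81.8 and 73.4 CPM. CST3, the protease inhibitor cystatin C, was at 112 and 115 CPM against 5.68 and 2.62 CPM. GNLY (granulysin, a pore-forming granule protein) was at 83.0 and 62.9 CPM against 4.17 and 2.62 CPM, but at 57.2 and 71.4 CPM in the Tconv class and 178 and 179 CPM in conventional cells. The last 2 genes were therefore unlike each other across the series: CST3 was rare in the Tconv class (4.72 and 4.49 CPM), while GNLY was below the conventional level.

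**Figure D2:**
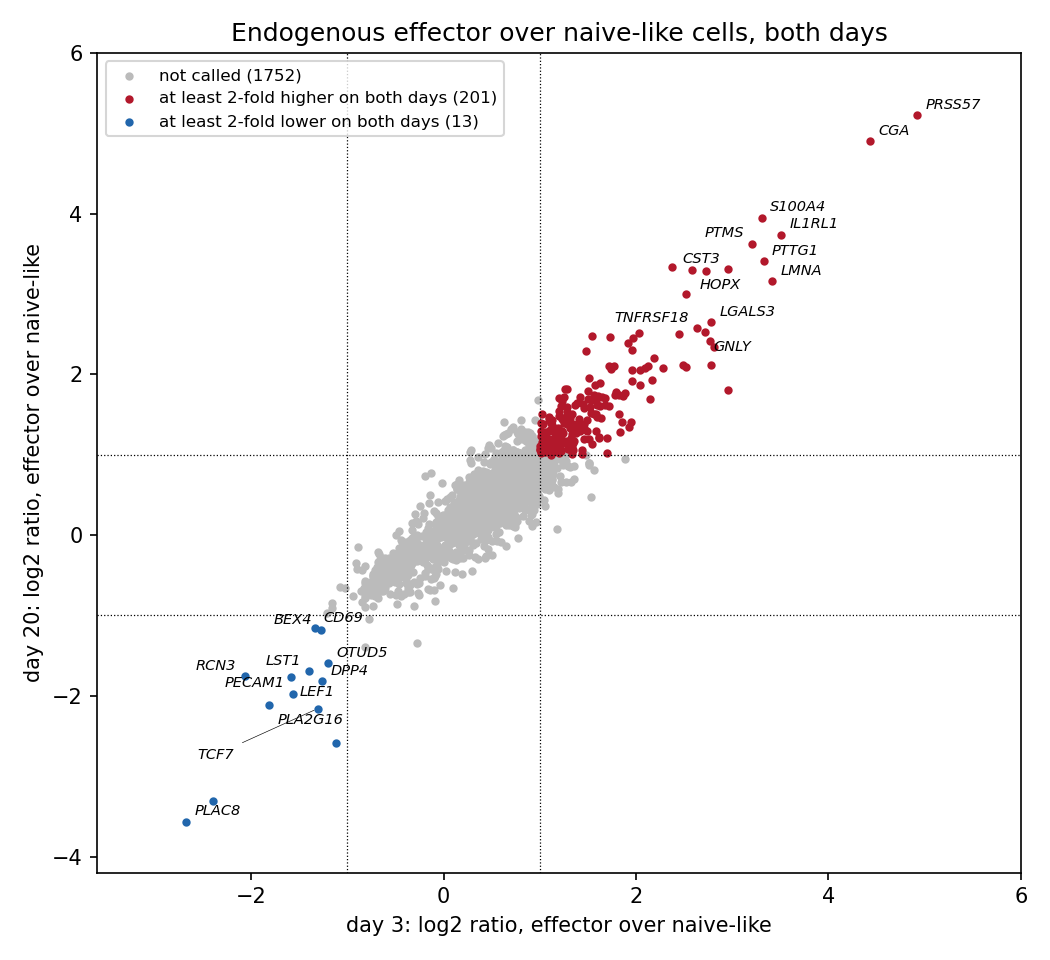
Log2 ratio of effector over naive-like cells on day 3 (x axis) and day 20 (y axis) for the 1966 genes at 50 CPM or more in either group on each day, with a pseudocount of 10 CPM and dotted lines at 2-fold. The 201 genes in red and the 13 in blue passed 2-fold the same way on both days, and PRSS57 and CGA lie farthest out at the top right and PLAC8 at the bottom left.

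The 13 lower genes held several genes of naive and recirculating T cells. LEF1, a transcription factor of naive T cells, was at 46.9 CPM (37.1 to 58.5) on day 3 and 46.5 CPM (35.6 to 59.6) on day 20 in effector cells against 160 and 183 CPM in naive-like cells, 0.293 times (0.227 to 0.373) and 0.254 times (0.188 to 0.339) as much. TCF7, its partner in naive T cells, was at 24.7 and 20.2 CPM against 75.8 and 125 CPM. PECAM1 (CD31, a marker of recent thymic emigrants in human CD4 cells) was at 36.1 and 40.5 CPM against 126 and 188 CPM. All 3 were also lower in effector cells than in the Tconv class and in conventional cells.

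PLAC8, a cysteine-rich protein of blood cells, had the lowest ratio of the 13, at 27.1 and 8.99 CPM in effector cells against 227 and 215 CPM in naive-like cells, or 0.119 times (0.0860 to 0.162) and 0.0418 times (0.0213 to 0.0744). DPP4 (CD26, a cell surface peptidase that Tregs are known to carry little of) was at 31.9 and 9.74 CPM against 90.2 and 59.4 CPM, and CD69, an early activation and tissue retention receptor, at 69.8 and 50.2 CPM against 192 and 124 CPM. The phospholipase PLA2G16 was at 42.7 and 41.2 CPM against 175 and 212 CPM. The others were RCN3, an endoplasmic reticulum calcium binder, LST1, the deubiquitinase OTUD5, BEX4 and CA6, a secreted carbonic anhydrase, with day 20 levels in effector cells of 17.2, 77.9, 77.9, 24.7 and 63.7 CPM against 82.2, 274, 256, 69.1 and 434 CPM. All 13 stayed among the lower calls under the TMM, median-of-ratios and ribosome-free totals. With a pseudocount of 30 CPM the 4 genes TCF7, DPP4, BEX4 and CD69 no longer reached 2-fold on both days.

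Gene lists were described by their members at 20 CPM or more in either group, as counts past 2-fold and as the median log2 ratio. Over all 4068 genes at that level on day 3, 11.2% were higher and 1.01% lower, and the median was 0.43. Over 4198 on day 20, 10.8% were higher and 0.691% lower, and the median was 0.37. Under TMM, median-of-ratios or ribosome-free totals each of these list medians was lower, by unequal amounts, and those that changed sign are named.

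The effector memory list (S100, annexin, galectin and cytoskeletal genes of antigen-experienced T cells) had 19 of 24 measured members at least 2-fold higher on day 3 and 18 of 23 on day 20, with medians of 1.37 and 1.5. VIM (vimentin, an intermediate filament) was at 3326 and 3015 CPM in effector cells against 850 and 604 CPM, ANXA2 (annexin A2, a membrane-binding protein) at 1428 and 1041 CPM against 319 and 235 CPM, and MYO1F, a myosin of migrating leukocytes, at 98.6 and 102 CPM against 17.8 and 10.5 CPM. The list kept a median of at least 1 with all members that had a UMI, and no other list did so. Actin cytoskeleton genes had all 27 measured members above 0 on both days, 11 and 10 of them past 2-fold, with medians of 0.84 and 0.92; ACTG1 (gamma actin) was at 4419 and 3640 CPM against 1710 and 1173 CPM, and COTL1 (coactosin, which binds actin filaments) at 1160 and 920 CPM against 428 and 272 CPM.

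The naive and quiescence list had 4 of 17 measured members past 2-fold lower on day 3 and 4 of 16 on day 20, 15 and 14 of them below 0, with medians of -0.39 and -0.60. TCF7 and LEF1 were among the lower members. LTB (lymphotoxin beta, a cytokine of lymphoid tissue organisation) was at 1275 and 856 CPM in effector cells against 2195 and 1776 CPM. IL7R, the survival receptor CD127 and a sort criterion, was at 126 and 188 CPM against 159 and 263 CPM, within 2-fold on both days.

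The Treg core list had 10 of 11 measured members above 0 on both days, 5 of them past 2-fold, with medians of 0.75 and 0.97. Beside FOXP3, CTLA4 and TNFRSF18 stood TNFRSF1B, the tumour necrosis factor receptor 2 of activated Tregs, at 340 and 217 CPM against 132 and 71.7 CPM, and ENTPD1, the ATP-degrading ectoenzyme CD39, at 31.3 and 21.0 CPM against 2.65 and 0.874 CPM. TNFRSF1B was 2.57 times (2.25 to 2.95) and 3.02 times (2.36 to 3.91) the naive-like level. IKZF2 (the transcription factor Helios) was at 12.6 and 10.5 CPM against 7.58 and 4.37 CPM with overlapping intervals, and was too low for the count.

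Effector Treg transcription factors had 5 of 12 measured members past 2-fold on day 3 and 5 of 10 on day 20, with medians of 0.79 and 1.04. PRDM1 (Blimp-1, a regulator of terminal differentiation) was at 200 and 119 CPM in effector cells against 81.5 and 29.7 CPM, and MAF at 38.5 and 29.97 CPM against 8.71 and 8.74 CPM. BATF, a partner of IRF4, was at 192 and 211 CPM against 84.5 and 101 CPM, 2.28 times (1.91 to 2.71) and 2.08 times (1.67 to 2.61) as much. KLF6 was at 309 and 233 CPM against 136 and 104 CPM, and IRF4 itself at 45.7 and 18.7 CPM against 28.0 and 11.4 CPM. PRDM1, MAF, BATF and KLF6 were thus higher on both days by ratios of 2.08 to 4.42, and IRF4 by less than 2-fold.

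Suppressive mediators had 3 of 5 measured members past 2-fold on day 3 and 4 of 6 on day 20, with 1 lower each day (DPP4), and medians of 1.20 and 1.31. FGL2, a secreted suppressive molecule, was at 40.9 and 24.7 CPM against 12.1 and 6.12 CPM. TGFB1 was at 150 and 171 CPM against 79.6 and 92.7 CPM, under 2-fold, and IL10 was at 1.20 and 0.749 CPM, against 0 in naive-like cells on both days, both too low for a comparison. The TNF receptor superfamily had 3 of 5 and 3 of 6 measured members past 2-fold, with medians of 1.25 and 1.06, and its member FAS, a death receptor, stood at 78.8 and 83.2 CPM against 27.3 and 18.4 CPM. Among co-inhibitory and co-stimulatory receptors, 3 of 16 were measured and CTLA4 alone passed 2-fold; ICOS, a co-stimulatory receptor of effector Tregs, was at 60.1 and 94.4 CPM against 31.8 and 47.2 CPM.

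Homing and trafficking genes went both ways, with 6 of 13 past 2-fold higher and 1 lower on day 3, and 5 higher and 2 lower on day 20. CCR10, a receptor for chemokines of skin and mucosal epithelium, was at 33.1 and 36.0 CPM in effector cells against 1.14 and 1.75 CPM in naive-like cells, and CCR6, the receptor for CCL20, at 40.3 and 36.7 CPM against 7.2 and 6.99 CPM. ITGB7, the beta chain of the gut integrin, was at 401 and 336 CPM against 122 and 115 CPM, a ratio of 3.28 (2.87 to 3.76) and 2.91 (2.39 to 3.56). CD69 was lower on both days and RGS1, a brake on chemokine receptor signalling, on day 20.

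MHC class II had 3 of 22 listed members measured, each past 2-fold on both days, with medians of 2.54 and 1.91. Mamu-DPB1 was at 82.4 and 56.2 CPM against 3.41 and 5.24 CPM, DRA at 77.0 and 47.2 CPM against 4.93 and 5.24 CPM, and HLA-DPA1 at 58.9 and 28.5 CPM against 2.65 and 0.874 CPM. Conventional cells were at 23.1 to 60.7 CPM for these 3 genes. Effector cells were above this range for Mamu-DPB1 and DRA on day 3 and otherwise within it. The excess on both days was over naive-like and Tconv-class cells. Against transferred effector cells of day 3 the median was 0.06, beside -0.21 for all genes. Cytotoxic genes had 4 of 5 and 4 of 4 measured members past 2-fold, with medians of 2.41 and 2.76; CST7 (cystatin F of cytotoxic granules) was at 58.3 and 83.9 CPM against 1.89 and 1.75 CPM, and GZMB (granzyme B) at 43.3 and 39.7 CPM against 2.65 and 2.62 CPM, far under the 682 and 742 CPM of conventional cells. These UMIs lay in few cells: 21 of 461 and 18 of 444 effector cells had a GZMB UMI, and 5 cells held 56.9% and 66.0% of them. Against the Tconv class the cytotoxic median was 0.63 on day 3 and -0.16 on day 20, beside 0.38 and 0.27 for all genes. The cytotoxic excess on day 20 was therefore over naive-like cells and not, by this median, over the Tconv class.

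Interferon response genes had all 15 and all 17 measured members above 0, 7 and 6 of them past 2-fold, with medians of 0.93 and 0.73; ISG20, an antiviral exonuclease, was at 1567 and 1060 CPM against 552 and 385 CPM. In p53 targets 3 of 5 were past 2-fold on both days, with SESN1 past 2-fold lower on day 20, and medians of 1.11 and 1.01; BAX, an activator of mitochondrial cell death, was at 282 and 202 CPM against 106 and 95.3 CPM. Glycolysis had medians of 0.94 and 0.70 with 2 of 9 and 3 of 10 past 2-fold, and oxidative phosphorylation 0.54 and 0.50 with 1 and 2 of 30, close to the median of all genes. Apoptosis regulators were at 0.69 and 0.67. IL-2 and STAT5 response was at 0.41 and 0.45, NF-kB pathway at 0.33 and 0.00, T cell receptor signalling at 0.30 and 0.38 and heat shock at 0.26 and 0.32; of these, NF-kB on day 20, T cell receptor signalling on day 3 and heat shock on day 3 went below 0 under all 3 other totals (-0.28, -0.31 and -0.24; -0.09, -0.14 and -0.04; -0.11, -0.14 and -0.06). T cell markers were at 0.30 and 0.38, with CD3D at 2425 and 1702 CPM in effector cells, and this list changed sign on day 3 as well (-0.09, -0.14 and -0.04). Under median-of-ratios factors alone, IL-2 and STAT5 response on day 3 (-0.00097), NF-kB on day 3 (-0.0041) and heat shock on day 20 (-0.02) also came out below 0.

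**Figure D3:**
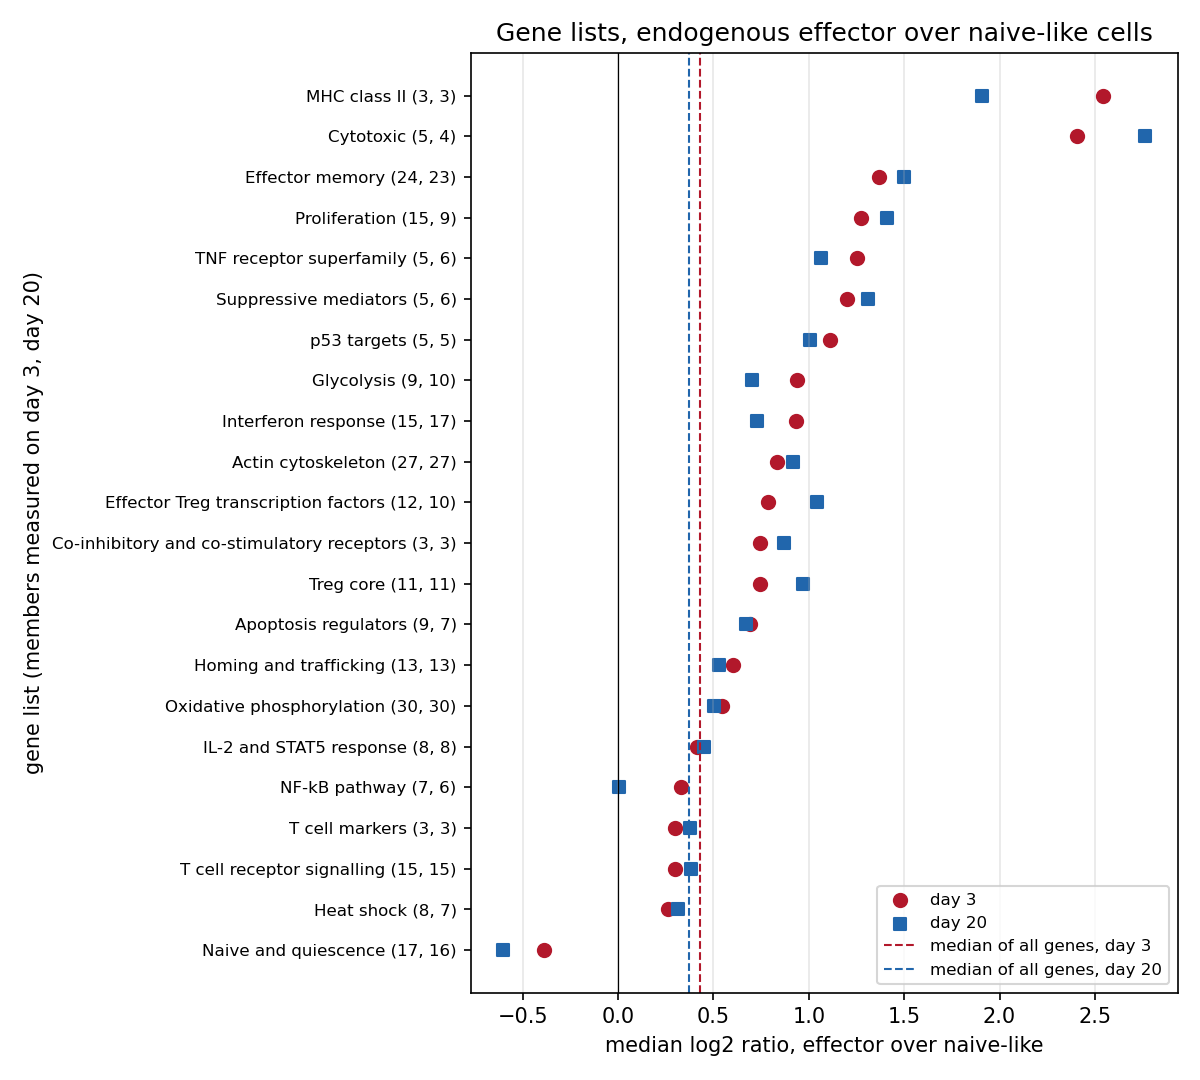
Median log2 ratio of effector over naive-like cells for each gene list with at least 3 members at 20 CPM or more, day 3 as circles and day 20 as squares, with the medians of all genes at that level as dashed lines (0.43 and 0.37). MHC class II, cytotoxic and effector memory genes lie farthest to the right, and naive and quiescence genes (-0.39 and -0.60) lie below 0 on both days.

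The Tconv class passed the same sort as the effector cells, in the same libraries. The effector cells enter this comparison and the last, so they are not independent. Of 1977 genes measured, 100 (5.06%) were at least 2-fold higher in effector cells on both days and 13 (0.658%) at least 2-fold lower, and the median gene was at 0.45 and 0.35. With TMM factors the counts were 47 and 27, and the higher share of the calls moved from 88.5% to 63.5%. It was 64.5% with median-of-ratios factors (49 and 27) and 72.3% with ribosome-free totals (60 and 23).

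PRSS57 (3.15 and 3.70 CPM in the Tconv class), CGA (3.31 and 4.49 CPM), IL1RL1 (3.94 and 7.93 CPM), PTTG1 (29.8 and 30.7 CPM) and CST3 led the higher genes here too. FOXP3 was next, with log2 ratios of 3.16 and 2.98, followed by IGKC, the immunoglobulin kappa constant gene, at 208 and 107 CPM in effector cells against 11.2 and 7.14 CPM, and PTMS. B cell markers beside IGKC were at 107 and 85.4 CPM in sum in effector cells, at 75.8 and 47.2 CPM in naive-like cells, at 24.1 and 17.7 CPM in the Tconv class and at 126 CPM in transferred effector cells. In effector cells MS4A1 was at 0.601 CPM and 0, and nearly all of these UMIs were of CD79A (18.6 and 27.0 CPM) and CD79B (87.8 and 58.4 CPM), which join the B cell receptor. Free RNA and B cells caught in droplets as sources of IGKC were not tested. HBB, a red cell gene, was at 2327 CPM in the Tconv class on day 3 and 34.9 CPM in effector cells. Of its 14773 UMIs in that class, 97.3% lay in 5 cells, and the shares of cells with an HBB UMI were alike, at 11% of the Tconv class and 11.9% of effector cells.

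Lower than in the Tconv class were PLA2G16 (401 and 400 CPM there), PLAC8 (178 and 128 CPM), TCF7 (155 and 149 CPM), PECAM1 (149 and 158 CPM), DPP4 (124 and 121 CPM) and LST1 (297 and 289 CPM). IL7R was at 585 and 638 CPM in the Tconv class, with log2 ratios of -2.13 and -1.71 for effector cells. ANXA1 (annexin A1, the glucocorticoid-induced anti-inflammatory annexin) was also lower, at 214 and 193 CPM in effector cells against 652 and 792 CPM, although most effector memory genes were above the Tconv class. That list had 11 of 24 measured members higher and 1 lower on day 3 (8.07% and 1.13% of all 4088 genes), and 7 of 23 higher and 1 lower on day 20 (4.50% and 0.900% of 4221).

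The Treg core list had 6 of 11 members past 2-fold over the Tconv class on day 3 and 7 of 11 on day 20, with medians of 1.81 and 1.49 beside 0.38 and 0.27 for all genes. CD40LG, the helper ligand of conventional CD4 cells, was at 13.2 and 14.2 CPM in effector cells, 49.1 and 73.5 CPM in the Tconv class and 56.9 and 84.5 CPM in conventional cells. The interferon list had medians of 0.28 and 0.15 against the Tconv class, beside 0.93 and 0.73 against naive-like cells. ISG15, a ubiquitin-like interferon product, was at 145 and 126 CPM in effector cells, 207 and 223 CPM in the Tconv class and 42.4 and 30.6 CPM in naive-like cells. The 2 interferon medians against the Tconv class went below 0 under TMM factors (-0.09 and -0.07), median-of-ratios factors (-0.06 and -0.05) and ribosome-free totals (-0.0023 and -0.0083).

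Markers of other blood cells were few in effector cells. CD8A was at 0 on both days, and so were the NK cell markers KLRD1, NCAM1 and KLRF1; the 4 NK markers found were at 1.80 and 8.99 CPM in sum in effector cells and at 87.8 and 86.4 CPM in conventional cells. The monocyte list was at 123 and 132 CPM in sum in effector cells, nearly all of it CST3 (112 and 115 CPM), with S100A8 and S100A9 at 0, and at 9.09 and 6.12 CPM in naive-like cells. Platelet markers were at 4.21 and 0.749 CPM in sum, and dendritic cell markers at 0.601 and 0.749 CPM. No gamma delta T cell marker of the list was found in the table.

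Across the finer classes with at least 50 cells on a day (6 others on day 3 and 3 on day 20), 1877 genes reached 50 CPM in effector cells on both days. Of these, 20 were at least 2-fold above every other finer class on both days, 19 of them with a gene name. Ranked by the smaller of the day 3 and day 20 ratios, CGA came first, followed by JAML, TCHH, FUT7, PTTG1, NCALD, MATK, PRSS57, TESC and S100A4. JAML, a junctional adhesion molecule of leukocytes, was at 55.3 and 54.7 CPM in effector cells and at most 4.83 and 4.85 CPM in another class. FUT7, the fucosyltransferase of leukocytes that adds fucose to surface sugars, was at 52.9 and 51.7 CPM and at most 6.48 and 0.808 CPM elsewhere among those classes. The Tconv class, which has no finer name, held more FUT7 than those, and effector cells were at 2.65 times (1.99 to 3.50) and 2.36 times (1.69 to 3.28) its level. TCHH (trichohyalin, known from hair follicles) was at 63.1 and 56.2 CPM, the calcium sensors NCALD at 56.5 and 53.2 CPM and TESC at 176 and 138 CPM, and the kinase MATK at 56.5 and 74.9 CPM. Conventional cells, which were not 1 of the classes ranked here, held TESC at 87.2 and 93.4 CPM. On day 20 the TESC level of effector cells was therefore less than 2-fold above theirs. The next-highest class for PRSS57, TESC and S100A4 on day 3 was the one that the authors named Unk1 (117 cells), at 139, 61.6 and 2345 CPM.

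Transferred effector cells could be set against endogenous ones only on day 3, since fewer than 50 cells of day 20 carried that name. The 2 groups came from different sorts and libraries, so origin, sort and library cannot be told apart. Of 2473 genes measured, 106 (4.29%) were at least 2-fold higher in endogenous effector cells and 94 (3.8%) at least 2-fold lower, and the median gene was at -0.21. The higher share of the calls was 53%, and it was 71.3% with TMM factors, 69.5% with median-of-ratios factors and 59.5% with ribosome-free totals, under which the median gene was at -0.04, -0.05 and -0.15.

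Among the higher genes, CGA was at 289 CPM in endogenous cells and had no UMI in the 1124 transferred effector cells, which makes it at least 318-fold higher when set against 3 UMIs. PRSS57 was at 419 CPM against 9.69 CPM, 43.2 times (30.3 to 63.7) as much, and S100A4 at 5544 against 440 CPM, 12.6 times (11.9 to 13.3). IL1RL1 (194 against 220 CPM), PTMS (254 against 235 CPM) and TNFRSF18 (259 against 326 CPM) were within 2-fold of each other in the 2 effector groups, while they were over 7 times the naive-like level in endogenous cells. PTTG1 lay between, at 547 against 163 CPM.

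Further genes were far higher in endogenous cells, among them a positioning receptor and an integrin chain. GPR183, an oxysterol receptor that positions lymphocytes in lymphoid tissue, was at 129 against 1.21 CPM, ITGB1 (the integrin beta 1 chain) at 403 against 28.5 CPM, and IL7R at 126 against 3.03 CPM. RGS1 was at 230 against 15.4 CPM, and TESC at 176 against 13.3 CPM. The whole CFSE-positive library of day 3 was also low in GPR183 (6.50 CPM), ITGB1 (26.8 CPM) and IL7R (13.4 CPM), and so was that of day 20 (22.1, 26.4 and 32.1 CPM). CTLA4 was 2.47 times (2.03 to 3.02) and TNFRSF1B 2.76 times (2.42 to 3.14) the transferred level.

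Lower in endogenous cells were AKAP12, a scaffold of protein kinase A, at 1.20 against 104 CPM, and the protease PRSS23, with no UMI against 83.9 CPM, at least 46.5-fold lower. PI16, a peptidase inhibitor, was at 1.80 against 54.5 CPM, and MPP1 and VSIG1, a membrane scaffold and an immunoglobulin superfamily member, at 19.2 against 127 CPM and 9.02 against 72.1 CPM. OTUD5 (95.6 against 621 CPM), LST1 (86.0 against 458 CPM) and PLAC8 (27.1 against 225 CPM) were lower than in every other group given above. LRRC32, which encodes GARP, the anchor of latent TGF-beta on activated Tregs, was at 2.41 against 42.1 CPM, and CD70, the ligand of CD27, at 18.0 against 87.2 CPM.

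The p53 target list had 5 of 8 measured members past 2-fold lower in endogenous effector cells and none higher, with a median of -1.38; over all 4524 genes at 20 CPM, 3.45% were lower and 3.89% higher, with a median of -0.21. BAX was at 282 against 1168 CPM, RPS27L at 637 against 1355 CPM, ZMAT3 at 10.2 against 72.1 CPM, CDKN1A (the cell cycle inhibitor p21) at 6.62 against 47.2 CPM and GADD45A at 14.4 against 68.4 CPM. BAX was at 894 CPM in the whole CFSE-positive library of day 3 and 262 CPM in that of day 20. Interferon response genes had 5 of 15 past 2-fold higher, with a median of 0.51; IFI6 was at 165 against 18.5 CPM and MX1, an antiviral GTPase, at 58.3 against 7.27 CPM. The cytotoxic list was at 1.16 (3 of 5 higher) and the proliferation list at 1.0 (8 of 15 higher). Without 32 effector cells that carried cell cycle UMIs, described with the cell cycle genes, the latter was at 0.24.

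**Figure D4:**
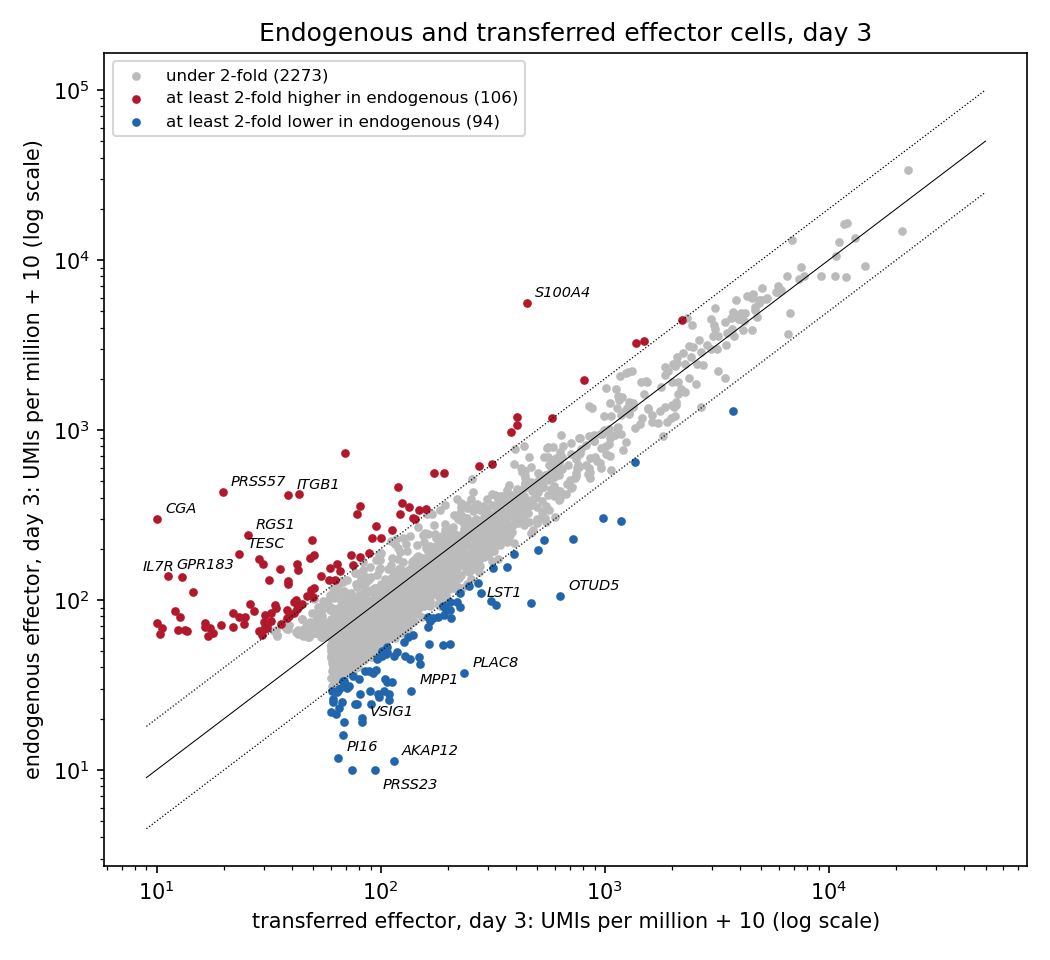
CPM plus 10 of each gene in transferred effector cells (x axis) and endogenous effector cells (y axis) of day 3, both on log scales, with the line of equality and dotted lines at 2-fold. The 106 genes in red lie above 2-fold in endogenous cells, with CGA, IL7R and GPR183 at the left edge, and the 94 genes in blue lie below, with PRSS23 and AKAP12 at the bottom.

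Effector cells of day 20 were compared with those of day 3 across their libraries, so day and library cannot be told apart. Of 2272 genes measured, 72 (3.17%) were at least 2-fold higher on day 20 and 23 (1.01%) at least 2-fold lower, with the median gene at -0.09. Only 12 of the 72 had a gene name (55 were unnamed and 5 were ribosomal protein genes), while all 23 lower genes had one. The same genes were followed in the other cells of these 2 libraries and in conventional cells, which came from other libraries. Of the 72, 71 had the same sign in naive-like cells and 72 in the Tconv class, with medians of 1.0 and 0.96 beside 1.17 in effector cells, but 5 in conventional cells, with a median of -0.42. Past 2-fold they were 35, 30 and 0 of the 72, where over all genes 3.33% were higher and 0.517% lower on day 20 in naive-like cells, 2.4% and 0.112% in the Tconv class, and 0.0572% and 0.114% in conventional cells. Of the 23 lower genes, 23, 20 and 13 had the same sign, with medians of -0.66, -0.28 and -0.04 beside -1.33 in effector cells. Past 2-fold they were only 5, 0 and 0 of the 23. Naive-like and Tconv-class cells share the library with effector cells, so a change common to them is a change of the library's cells and not one seen in effector cells by themselves.

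CISH, a STAT5-induced brake on cytokine receptors, was at 363 CPM (335 to 393) on day 3 and 44.2 CPM (33.7 to 57.0) on day 20 in effector cells, 0.122 times (0.0915 to 0.159) as much. It was at 259 and 29.7 CPM in naive-like cells, 141 and 88.3 CPM in the Tconv class and 63.6 and 86.8 CPM in conventional cells. SOCS1, another brake of this kind, was at 75.2 and 20.2 CPM in effector cells and 61.8 and 45.5 CPM in naive-like cells. IL2RA had 0.506 times (0.456 to 0.560) its day 3 level, and BCL2, an anti-apoptotic gene, 0.368 times (0.292 to 0.459), from 210 to 77.2 CPM. With cells thinned to 1000 UMIs, an IL2RA UMI was found in 50.1% and 32.7% of effector cells. The shares were 37.6% and 23.8% of naive-like cells and 11.5% and 12.2% of the Tconv class. The fall in IL2RA was therefore shared with naive-like cells. The IL-2 and STAT5 response list had 3 of 8 measured members past 2-fold lower (0.859% of all 4306 genes at 20 CPM) and none higher, with a median of -0.54 beside -0.05, although IL2RB, the signalling chain of the receptor, was at 72.2 and 126 CPM.

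Other lower genes were DRC1, a dynein regulator of cilia, from 75.8 to 6.74 CPM, and ARG1, the arginine-degrading arginase, from 82.4 to 18.7 CPM. In naive-like cells both were low on each day (3.03 CPM and 0, and 9.47 and 4.37 CPM). LPAR6, a lysophosphatidic acid receptor, went from 142 to 32.2 CPM in effector cells and from 257 to 101 CPM in naive-like cells. CA6 (217 and 63.7 CPM), RGS1 (230 and 71.9 CPM), the proprotein convertase FURIN (87.8 and 26.2 CPM), UBALD2 (143 and 47.2 CPM) and the sugar transporter SLC50A1 (142 and 49.5 CPM) completed the 10 named by rank. STMN1, a microtubule regulator of dividing cells, was at 544 and 226 CPM, and ID2, an inhibitor of helix-loop-helix factors, at 114 and 40.5 CPM in effector cells and 166 and 41.1 CPM in naive-like cells.

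CGA was among the genes that were higher on day 20, at 2.54 times (2.28 to 2.84) its day 3 level. Its share of cells, thinned to 1000 UMIs, was 16.5% (13.2 to 20.2) on day 3 and 39.2% (34.6 to 43.9) on day 20, and no thinned conventional cell had a CGA UMI on either day. Without thinning, 1 of 3037 conventional cells on day 3 and 2 of 3677 on day 20 had such a UMI, against 29.3% and 52.3% of effector cells. ID3, an inhibitor of helix-loop-helix factors, was at 36.7 and 96.7 CPM in effector cells and at 19.7 and 35.0 CPM in naive-like cells. HOPX was at 2.01 times (1.66 to 2.44) its day 3 level, just under the 2-fold call with the pseudocount (0.94).

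ZFP36L2, which destabilises AU-rich messenger RNAs, was at 80.6 and 212 CPM in effector cells and 69.3 and 236 CPM in naive-like cells. CD48, an adhesion ligand of lymphocytes, was at 310 and 709 CPM, with 393 and 792 CPM in naive-like cells and 590 and 436 CPM in conventional cells. TSC22D3, a glucocorticoid-induced regulator, was at 214 and 492 CPM in effector and 210 and 487 CPM in naive-like cells. The prefoldin subunit PFDN5 (166 and 369 CPM), the RNA-binding gene PCBP1 (30.7 and 75.7 CPM), the chromatin gene MBD3 (36.7 and 95.9 CPM) and LYST, a lysosome trafficking gene (20.4 and 53.2 CPM), were also called. Of the 10 named higher genes, 9 also had a higher level on day 20 in naive-like cells, CGA (3.79 and 14.9 CPM) and LYST (35.6 and 49.8 CPM) among them, and GZMA did not.

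**Figure D5:**
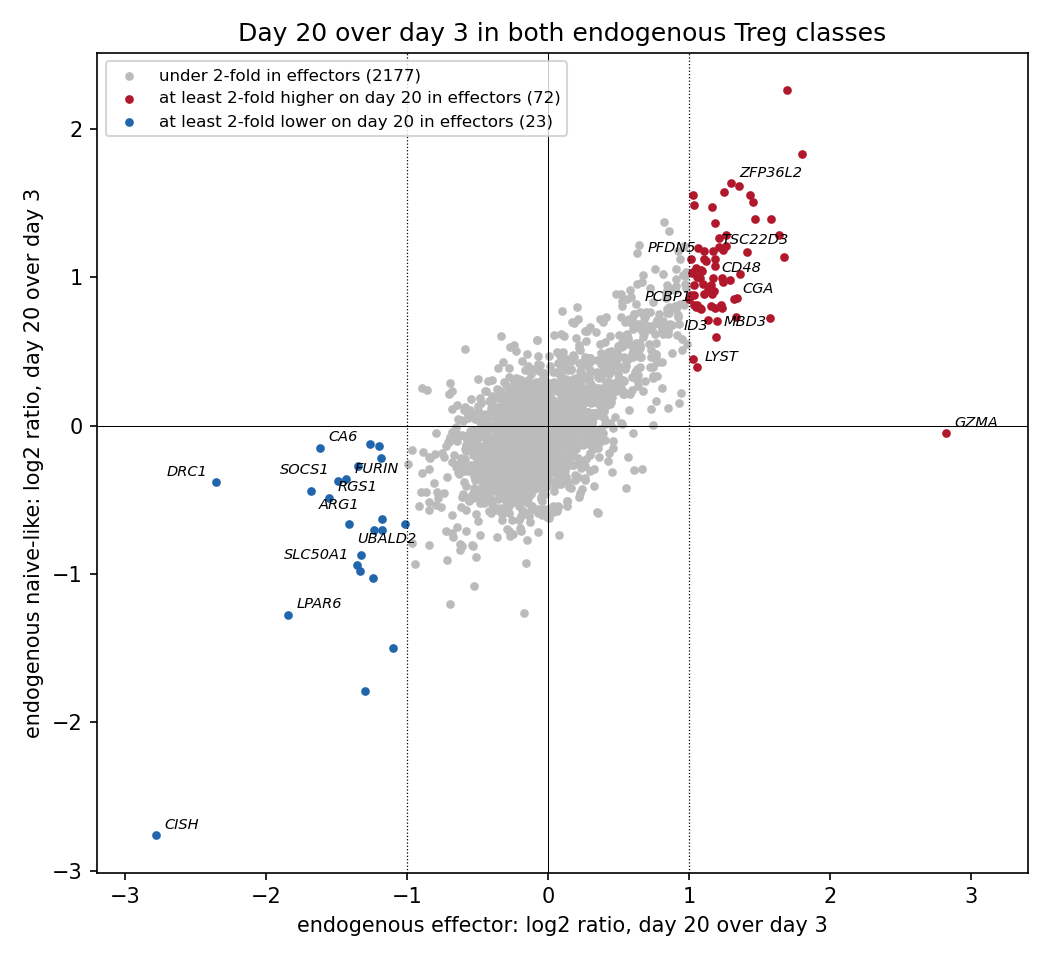
Log2 ratio of day 20 over day 3 in effector cells (x axis) and in naive-like cells of the same libraries (y axis) for the 2272 genes at 50 CPM or more in effector cells on either day, with dotted lines at 2-fold. CISH lies at the bottom left in both groups, while GZMA lies far right in effector cells and near 0 (-0.05) in naive-like cells.

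GZMA (granzyme A, a protease of cytotoxic granules) had the largest ratio, at 4.21 CPM (1.69 to 8.67) on day 3 and 90.7 CPM (75.2 to 108) on day 20, 21.5 times (10.1 to 54.7) as much. Its 121 UMIs of day 20 lay in 25 of 444 cells (5.63%, 3.68 to 8.20), with 50.4% in 5 cells, and its 7 UMIs of day 3 in 4 of 461. In naive-like cells of the same library, at a median of 2712.5 UMIs, no GZMA UMI was found in 412 cells, which allows a share of cells with a UMI of up to 0.728% (3 of 412) and sets no limit on cells that express the gene. The 25 cells had a median of 4667 UMIs against 2457.5 for all effector cells of day 20. GZMB was found in 12 of the 25, CST7 in 14, CXCR6, a chemokine receptor of tissue T cells, in 6, FOXP3 in 5 and CGA in 1, whereas CGA was found in 52.3% of all effector cells and FOXP3 in 36.5%. Without the 62 doublet-like cells of day 20 and the 75 of day 3, GZMA had a log2 ratio of 2.0 and no longer reached 50 CPM.

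Further genes also lay in small sets of effector cells on 1 of the days. DRC1 was found in 44 of 461 cells on day 3 (9.54%) and 6 of 444 on day 20, and in 5 of 798 naive-like cells on day 3. CCR9, the gut-homing chemokine receptor, was at 43.9 CPM (34.4 to 55.2) on day 3, in 41 cells, and at 0.749 CPM (0.0190 to 4.17) on day 20, in 1 cell. CXCR6 was at 0.601 CPM on day 3, in 1 cell, and 26.2 CPM (18.3 to 36.5) on day 20, in 31. ARG1 was found in 51 cells on day 3 and 15 on day 20. On day 3 only 2 cells held both DRC1 and CCR9, and 7 held DRC1 and ARG1. CCR9 and CXCR6 stayed under 50 CPM and were not called.

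CGA and PRSS57, the leading genes of the effector cells, were found in the same cells more often than in effector cells at large. CGA-positive cells numbered 135 of 461 on day 3 and 232 of 444 on day 20, and PRSS57 was found in 96 of the 135 (71.1%) and 146 of the 232 (62.9%), compared with 35.4% and 43.2% of all effector cells. IL1RL1 followed the same cells: of the 135 and 181 cells with IL1RL1, 81 and 128 (60.0% and 70.7%) also had CGA. The median UMIs of CGA-positive cells (3112 and 2330.5) were below those of all effector cells (3363 and 2457.5), so these cells were not the deepest ones.

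Variation among effector cells was measured as the variance over the mean of UMIs in cells thinned to 1000, which is 1 for counting noise. For the same relative spread among cells, this ratio is larger in genes with more UMIs. Its order therefore partly follows abundance and does not rank genes by relative spread. The median over 810 genes was 1.04 on day 3 and 1.03 on day 20, and 17 genes reached 1.5 on both days. TMSB4X (thymosin beta 4, which binds actin monomers) was at 5.03 and 4.34, S100A4 at 5.64 and 4.16, TPT1 at 4.50 and 3.84, ACTB at 3.60 and 3.07 and CD52, a surface glycoprotein of lymphocytes, at 2.42 and 2.46. These 5 were among the 15 named genes with the most UMIs in effector cells, which also held RACK1, ifitm1, S100A10, S100A11, EEF1A1, EEF1G, NACA and PFN1. Their day 3 levels ran from 5544 CPM for S100A4 to 33619 CPM for TMSB4X. IFI27, an interferon-induced gene, reached 3.31 and 2.67 at 236 and 411 CPM, CGA 2.24 and 3.02, ANXA1 2.18 and 2.18, and LTB 2.25 and 1.93. VIM (2.37 and 2.42), ACTG1 (2.15 and 2.04) and S100A6 (2.41 and 1.81) made up the rest of the 12 named.

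A few effector cells carried cell cycle RNA. With 12 cycle genes, at least 3 UMIs were found in 32 of 461 cells on day 3 (6.94%, 4.80 to 9.66) and 14 of 444 on day 20 (3.15%, 1.73 to 5.23). In naive-like cells the counts were 3 of 798 and 0 of 412, in the Tconv class 2 of 2037 and 2 of 1356, and in transferred effector cells 1 of 1124. Thinned to 1000 UMIs, at least 1 such UMI was found in 10.4% and 7.66% of effector cells, 2.13% and 1.46% of naive-like cells and 4.19% of transferred effector cells. MKI67, the proliferation antigen, was at 40.3 and 33.7 CPM in effector cells and 2.65 and 0.874 CPM in naive-like cells. TK1 (thymidine kinase, made in DNA synthesis) was at 31.3 and 5.99 CPM. These cells were deeper than the others, at medians of 5287.5 and 6028.5 UMIs, and doublets among them were not tested. On day 3 FOXP3 was at 206 CPM in the 32 cycle-positive cells and 238 CPM in the other 429. On day 20 the 14 cycle-positive cells held 1 FOXP3 UMI (11.9 CPM, 0.301 to 66.3), against 216 CPM in the other 430. CTLA4 was at 262 against 128 CPM there. The 14 cells also held 33 of the 121 GZMA UMIs of day 20, at 393 against 70.4 CPM.

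The proliferation list had 10 of 15 measured members past 2-fold over naive-like cells on day 3 and 6 of 9 on day 20, with medians of 1.27 and 1.41. Over the same members without the cycle-positive cells, these were 0.49 and 1.06. With members measured again at 20 CPM in the cells left, they were 0.67 and 0.96. Between days the list was at -0.75, with 4 of 15 members past 2-fold lower on day 20 and none higher, and at -0.20 without those cells. PTTG1 was not confined to them: it was at 713 CPM in the 32 cycle-positive cells of day 3 and 528 CPM in the other 429, and at 226 CPM in the 14 of day 20 and 682 CPM in the other 430.

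Over 2685 genes, the log2 CPM of effector cells of day 3 and day 20 had a Pearson correlation across genes of 0.963, which describes these libraries, since genes are not replicates and abundance dominates it. Naive-like cells of both days were at 0.973 and the Tconv class at 0.978. Effector and naive-like cells of the same day were at 0.924 on each day, effector cells and the Tconv class at 0.923 and 0.943, and endogenous and transferred effector cells of day 3 at 0.917.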

How the data were processed

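Per the labels' protocols, macaque blood mononuclear cells were sorted and captured with the 10x single-cell 3' version 2 chemistry, and per the submitters' processing notes Cell Ranger 2.1.1 was used. No genome build or annotation is given in the sources used here. Per gene and cell, the deposited tables hold whole UMI counts (16429 genes, 25397 cells), with no scaling, and cell names and classes were taken from the authors' deposited cell table; the rule that names cells is not given there. Of 3130 identifiers without a symbol, 309 took a name from the given table that pairs gene IDs with symbols.

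Counts were summed over the cells of a group and day, scaled to 1000000 (CPM), and compared as log2 ratios with a pseudocount of 10 CPM, or as plain ratios with exact conditional 95% intervals. Levels carry exact Poisson and shares exact binomial intervals. With 1 library per population and day no test was run. UMI counts were thinned with a fixed seed. The ratio, call and interval code was checked on simulated counts. Tools were Python 3.11.15, numpy 2.4.6, scipy 1.17.1 and pandas 2.3.3, with factors from edgeR 4.0.16 and DESeq2 1.42.0 used for scaling alternatives only.

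The members and the 33 gene lists (517 entries) were chosen with earlier results of these data known. Named genes exclude unnamed, mitochondrial and ribosomal protein genes and are the 15 most abundant in effector cells (described where they vary), the 12 per direction with the largest smaller-of-days ratio to naive-like cells, 8 per direction to Tconv-class and transferred effector cells, 10 per direction between days, 12 by variance over mean, 10 by ratio to every other finer class, the 4 markers, and up to 4 members per list. Other genes named (IL10, IKZF2, IL7R beside naive-like cells, HBB, the carriers of GZMA and of cycle genes, and the levels beside them) were chosen after their values were seen, as were the 12 cycle genes. Genes with near-identical copies, such as MHC class II and immunoglobulin genes, may share reads. Values of some genes within these rules are not reported here.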

Additional observations from a re-analysis of the deposited data

Results flagged for a closer look

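The CFSE-positive libraries, taken as those of transferred cells, held cells that the authors named as endogenous effector Tregs: 6 of 4142 cells on day 3 (0.145%, exact binomial interval 0.0532 to 0.315) and 1 of 1149 on day 20. They stood out because the name and the sort go against each other, and none of the comparisons uses them. Of the 6 cells, 3 were of the authors' endoTreg class and 3 of their transTreg class. FOXP3 UMIs were found in 3 of the 6, IL2RA in 4 and S100A4 in 5, while CGA was found in none and PRSS57 in 1. Sort impurity and errors in naming were not tested.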

How the results depend on the processing

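No paired analysis was possible because each population and day has 1 library and the labels give no replicate numbers. Of 1068 values recomputed for 126 named genes, list medians and shares, 995 kept their side of 2-fold (or moved within their interval) and 0 counted as reversed. A list median could count as reversed only if it was at least 1 above or below 0 as reported. Smaller list medians that changed sign counted as kept, such as NF-kB on day 20 with ribosome-free totals (-0.24). The counts of called genes moved more. Higher and lower than naive-like cells, the 201 and 13 genes became 73 and 46 with TMM factors, 66 and 58 with median-of-ratios factors and 97 and 34 with totals free of ribosomal and mitochondrial genes, an alternative added after the data were seen. A pseudocount of 30 CPM gave 118 higher, no expression filter 21 lower, and a 3-fold threshold 53 and 4. Against the Tconv class, the 100 and 13 genes became 47 and 27 (TMM), 49 and 27 (median-of-ratios), 60 and 23 (ribosome-free), 63 higher (30 CPM), 160 and 27 (no filter) and 32 higher (3-fold). Against transferred effector cells, the 106 and 94 became 60 lower (TMM), 55 lower (30 CPM), 198 and 181 (no filter) and 46 and 34 (3-fold). Between days, the 72 and 23 became 38 higher (30 CPM), 42 lower (no filter) and 5 and 5 (3-fold). A pseudocount of 1 CPM, means of per-cell CPM, thinned sums, leaving out doublet-like cells and leaving out cycle-positive cells kept each of these counts within 1.5 times.

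Lists with a median of at least 1 over naive-like cells on both days numbered 7; they were 1 with all members that had a UMI, 4 without doublet-like cells and 4 with ribosome-free totals, each with members measured again at 20 CPM (without doublet-like cells, suppressive mediators kept 1.29 and 1.15 over the same members). Without doublet-like cells the effector share of the library was 12.4% on day 3 and 17.1% on day 20, and of cells with a finer name it was 35.6% and 47.6%. FOXP3 was found in 47.1% and 36.5% of unthinned cells and 35.0% and 30.03% of cells thinned to 2000 UMIs, and 35 genes in place of 17 reached a variance over mean of 1.5 at that depth. For a gene that varies among cells this ratio grows with depth, so the 2 counts are not on the same footing. Genes under 20 CPM rest on about 30 UMIs or fewer in each day's effector cells, so their ratios are wide. The cause of these moves was not tested.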
